A study of Mus musculus with 6 samples.

Results

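Chemokines and their receptors were measured in the livers of mice on 2 diets, as 51 genes of 19938 on the array. The members were every gene on a probe set of its own (a group of short probes for 1 transcript) whose symbol begins Ccl, Cxcl, Xcl or Cx3cl for a ligand, or Ccr, Cxcr, Xcr or Cx3cr for a receptor, followed by a number. They comprise 34 ligands and 17 receptors. A gene with several probe sets was read from the one with the highest mean. The genes Ccl21a to Ccl21d, Ccl27a and Ccl27b lie on probe sets shared by several genes and are no members. All 6 arrays carried total RNA of liver from male mice of the inbred C57BL/6 strain, labelled as 6 weeks old, which had been acclimatized on chow for 1 week. One group was fed chow with 1% cholesterol (cholesterol group, arrays CH1 to CH3). In the other group the chow held 100 mg of lovastatin and 21 mg of ezetimibe in each 100 g (the arrays named LE1, LE2 and LE3). Of the drugs, lovastatin inhibits cholesterol synthesis and ezetimibe the intestinal uptake of cholesterol. Neither diet was compared with plain chow here, so a higher value on one diet is equally a lower value on the other. The labels call the arrays biological replicates without tying them to single animals. The p-values of the fit described below rest on the spread of arrays within both diets, drawn toward a value shared by all genes. Part of that spread may be technical.

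Chemokines are small secreted proteins that guide leukocytes along a gradient, and they are named CC, CXC, XC or by the further CX3C pattern after the spacing of their first cysteines. Their receptors are G protein-coupled and sit on the migrating cells, and most receptors bind several ligands. In the liver, resident macrophages (Kupffer cells), endothelium, stellate cells and hepatocytes can all make chemokines, and the receptors are mostly carried by the leukocytes that patrol the sinusoids.

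Array values are given as log2(intensity + 1), and changes as lovastatin and ezetimibe minus cholesterol with the standard error (SE) of limma's moderated fit. In that fit, 6 of the 51 genes were higher with lovastatin and ezetimibe and 2 were lower at a Benjamini-Hochberg adjusted p under 0.05 over all genes. Cxcl13, Cxcl10, Cxcl9, Ccl3, Ccl6 and Cxcl16 rose, and Cxcl12 and Ccl12 fell. The 8 genes are 15.7% of the members, beside 12.1% of all genes tested. By direction, 11.8% of members rose beside 7.01% of all genes, and 3.92% fell beside 5.08%. The median change of the 51 genes was 0.04, beside 0.00 over all genes, and single changes ran from -0.25 to 0.95. The count was 4 without CH1, LE2 or LE3, and Cxcl13, Cxcl10 and Cxcl9 alone were past the threshold in all 14 alternatives.

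**Figure D1:**
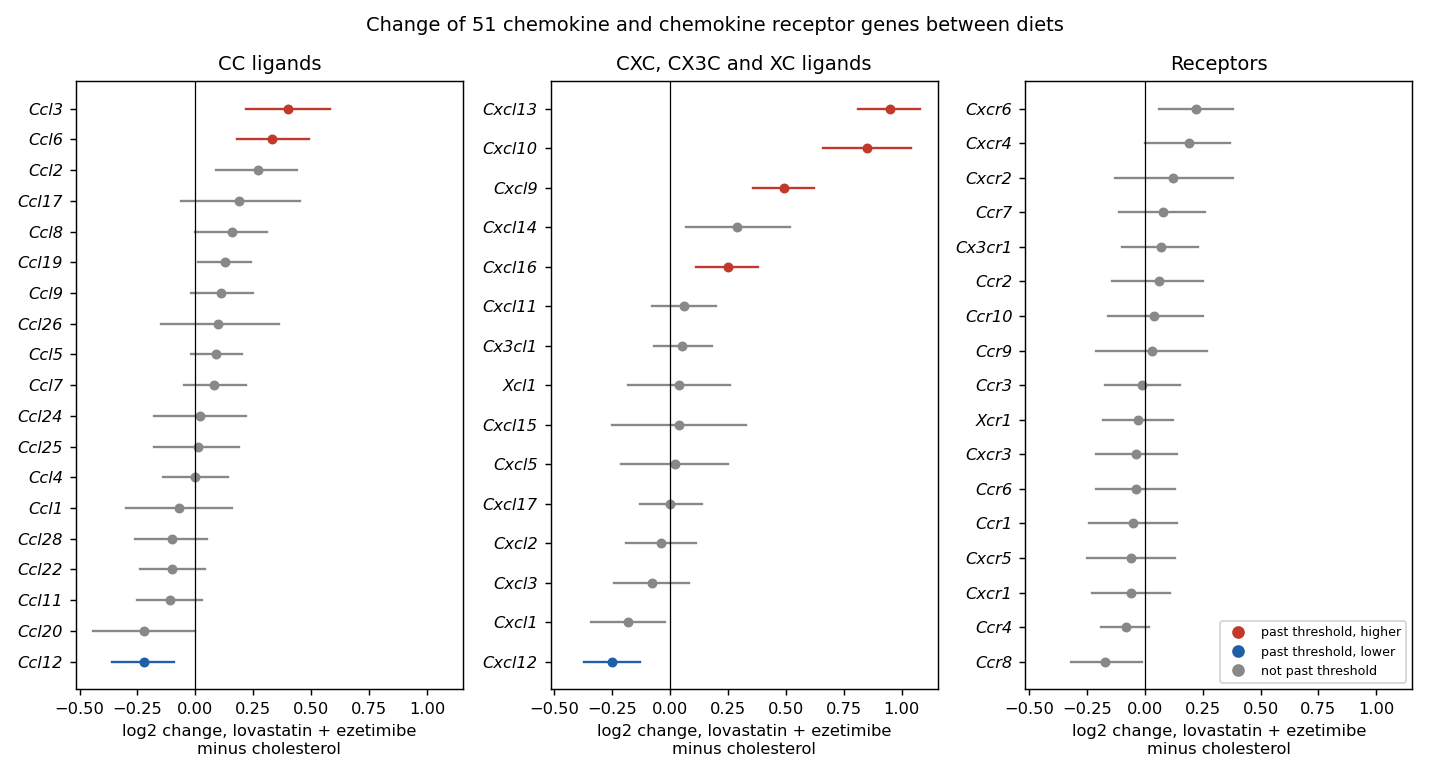
Change of each of the 51 genes on the log2 scale (x axis, lovastatin and ezetimibe minus cholesterol), with points for the estimate and lines for its 95% interval, in 3 panels for CC ligands, other ligands and receptors. Cxcl13 (0.95) and Cxcl10 (0.85) stand farthest from 0, and no receptor is past the threshold.

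The array values of the 2 diets did not overlap for 17 members. Of these, 12 (23.5%) were higher with lovastatin and ezetimibe and 5 (9.8%) were lower, beside 15.9% and 14.7% of all genes. Besides the 8 genes past the threshold, Ccl19, Ccl2, Ccl5, Cxcl14, Cxcr4 and Cxcr6 were apart and higher, and Ccl22, Ccr4 and Cxcl1 apart and lower. Many of the probe sets were dim: 27 of the 51 lay in the lowest 33.3% of genes by mean signal, among them 13 of the 17 receptors. Among the genes past the threshold, 2 (Ccl3 and Ccl12) were that dim.

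Cxcl9, Cxcl10 and Cxcl11 are the interferon-induced ligands of Cxcr3, the receptor of activated T cells and natural killer cells. Cxcl10 read 7.93, 7.91 and 7.91 on CH1 to CH3 and 8.60, 8.92 and 8.78 on LE1 to LE3. The cholesterol arrays were nearly equal, and every array of the other diet lay well above them. The rise was 0.85 (SE 0.08), or 1.8-fold, with limma's adjusted p = 0.000424. Cxcl9 read 10.02, 9.89 and 9.98 on the cholesterol arrays and 10.41, 10.45 and 10.50 on the others. Its groups were also apart, with a rise of 0.49 (SE 0.06), or 1.41-fold, and limma's adjusted p = 0.000969. Cxcl11 read 8.14, 8.02 and 8.11 against 8.17, 8.07 and 8.21. These values overlap, and the difference was 0.06 (95% interval -0.08 to 0.20, limma's adjusted p = 0.621). Mice of this strain are known to carry a Cxcl11 gene that makes no functional protein, and RefSeq lists it as a transcribed pseudogene. Cxcr3 itself read 7.45, 7.39 and 7.30 against 7.46, 7.36 and 7.21. Its difference was -0.04 (interval -0.21 to 0.14).

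Within each array, the log2 ratio of Cxcl10 to Cxcl11 went from -0.22 to -0.10 on the cholesterol arrays to 0.42 to 0.86 on the others, and that of Cxcl9 to Cxcl11 from 1.87 to 1.88 to 2.24 to 2.38. The ratio of Cxcl10 to Cxcl9 rose too, by 0.36, from -2.05 (SD 0.06, n = 3) to -1.69 (SD 0.15, n = 3). All these ratios were apart between the diets, so the signals of the 3 genes moved by unequal amounts on these arrays. The two-sided exact permutation test gave p = 0.1 for each of the 6 ratios examined here and below, adjusted p = 0.1, which is the smallest value that 3 arrays against 3 allow.

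The promoters of Cxcl10, Cxcl9 and Cxcl13 are shown because these genes changed the most among the members. Each run covers 250 bases before the start site and 50 after it, 5′ to 3′ on the gene's strand, from RefSeq on build GRCm38.p6. Capitals mark matches on either strand to GAAANNGAA, the core of the interferon-stimulated response element, or to GGNNNTTCC, one form of the NF-kB site. The Cxcl10 run lies at chr5:92348840-92349139 on the minus strand, that of Cxcl9 at chr5:92328030-92328329 on the minus strand and that of Cxcl13 at chr5:95956689-95956988 on the plus strand.
Cxcl10: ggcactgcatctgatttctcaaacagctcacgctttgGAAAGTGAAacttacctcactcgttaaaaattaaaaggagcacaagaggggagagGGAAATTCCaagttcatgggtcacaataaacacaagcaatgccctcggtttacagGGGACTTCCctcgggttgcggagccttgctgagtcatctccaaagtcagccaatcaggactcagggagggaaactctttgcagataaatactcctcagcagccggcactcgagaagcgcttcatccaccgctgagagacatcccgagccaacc
Cxcl9: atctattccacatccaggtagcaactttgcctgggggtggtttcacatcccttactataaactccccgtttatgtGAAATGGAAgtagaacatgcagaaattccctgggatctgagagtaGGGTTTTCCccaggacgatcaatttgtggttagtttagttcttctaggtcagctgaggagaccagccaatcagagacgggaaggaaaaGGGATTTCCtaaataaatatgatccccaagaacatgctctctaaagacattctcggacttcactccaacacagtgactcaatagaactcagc
Cxcl13: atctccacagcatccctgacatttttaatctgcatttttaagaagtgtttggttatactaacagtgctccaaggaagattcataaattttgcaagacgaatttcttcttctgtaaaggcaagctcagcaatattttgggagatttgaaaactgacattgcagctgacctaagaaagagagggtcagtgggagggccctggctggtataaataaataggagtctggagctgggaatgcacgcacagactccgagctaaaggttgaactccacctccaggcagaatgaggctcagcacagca

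In Cxcl10 the interferon motif begins 213 bases upstream of the start site and the NF-kB form 158 and 103 bases upstream. The run at 158 bases matches the NF-kB form on both strands, though its letters differ between them. In Cxcl9 the interferon motif begins 175 bases upstream and the NF-kB form 130 and 42 bases upstream. The Cxcl13 window holds neither run of letters. A promoter sequence was matched for 37 of the 51 genes. The interferon motif was in 8 of the 37, among them 3 of the 7 matched genes past the threshold (Cxcl9, Cxcl10 and Ccl3) and 5 of the 30 others. Of all 32851 promoters of this length, 8.56% held it. The NF-kB form was in 14 of the 37 members, 3 of the 7 past the threshold and 11 of the 30 others, beside 18.5% of all promoters. Cxcl1, Cxcl2 and Cxcl3, neutrophil attractants that did not pass the test, are among the genes with the NF-kB form. Such matches are letters in a window and no evidence of binding.

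Cxcl13, the B cell attractant that organises lymphoid follicles and binds Cxcr5, rose the most of the 51 genes. It read 7.84, 7.80 and 7.85 on the cholesterol arrays and 8.82, 8.68 and 8.82 on the lovastatin and ezetimibe arrays. The groups were far apart beside a spread of 0.03 (SD, n = 3) and 0.08 (SD, n = 3). The rise was 0.95 (SE 0.06), or 1.93-fold, with limma's adjusted p = 3.43e-05. Cxcr5, by contrast, read 5.53, 5.32 and 5.60 against 5.46, 5.34 and 5.48. Those values overlap, with a difference of -0.06 (interval -0.25 to 0.13). Of 5 measured B cell markers, 0 rose and 1 fell, beside 7.01% and 5.08% of all genes. As 4 of the 5 lay below the median signal of all genes, this short list does not settle whether B cell RNA changed. The one that fell was Pax5, the B cell transcription factor (-0.25, SE 0.06, limma's adjusted p = 0.0267). With 1 array left out, its call held only without LE3 and otherwise ended (adjusted p up to 0.0925).

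**Figure D2:**
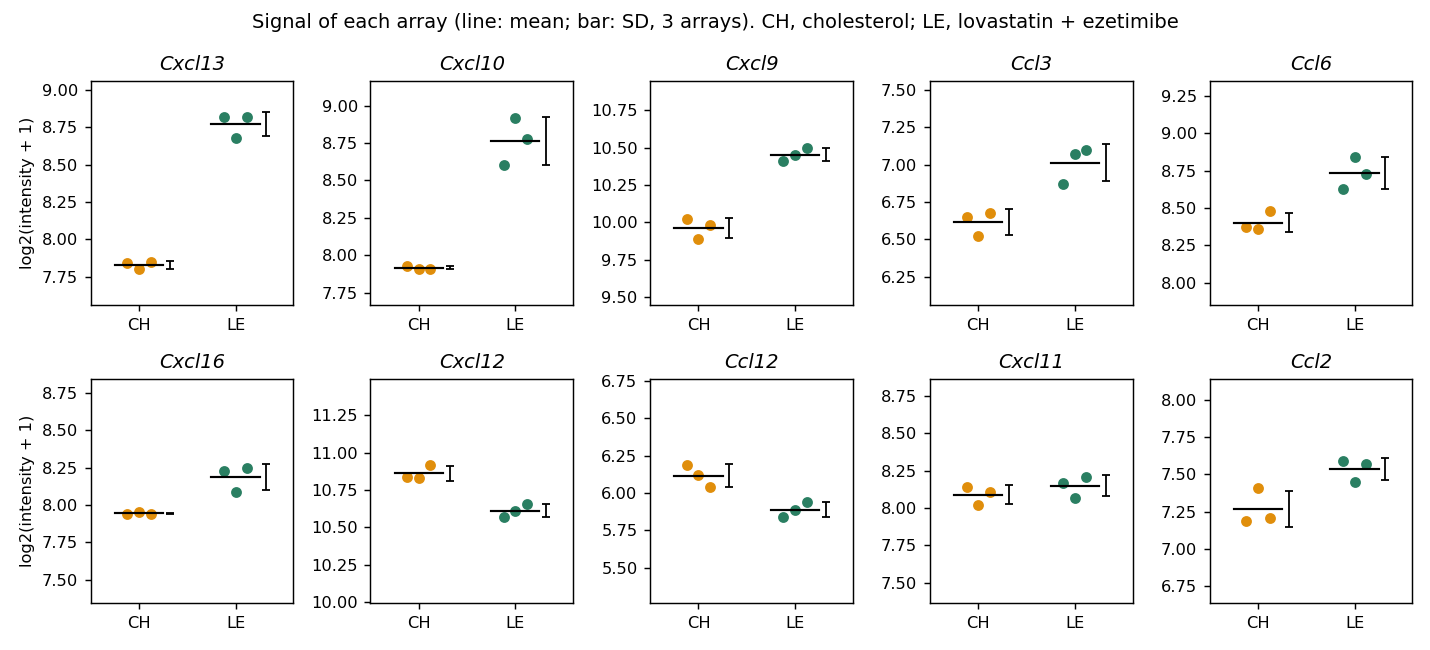
Signal of 10 genes on each array as log2(intensity + 1) (y axes, all spanning the same range but with different starts), for the cholesterol arrays (CH) and the lovastatin and ezetimibe arrays (LE), with the mean as a line and the SD of 3 arrays as a bar. The panels of Cxcl13, Cxcl10 and Cxcl9 show the widest gaps between the diets, and the 2 groups of Cxcl11 overlap.

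Ccl3, Ccl4, Ccl5, Ccl6 and Ccl9 are inflammatory CC ligands whose genes follow each other on chromosome 11, and several of them bind Ccr1. Ccl3, a product of activated macrophages, read 6.65, 6.52 and 6.68 on the cholesterol arrays and 6.87, 7.07 and 7.10 on the others. The groups were apart, with LE1 nearest to the cholesterol arrays. It rose by 0.40 (SE 0.08), or 1.32-fold, with limma's adjusted p = 0.0134. Without LE2 or LE3 the adjusted p was 0.0592 and 0.0557 (0.00289 to 0.0592 over all alternatives). Ccl6, a rodent macrophage chemokine, read 8.37, 8.36 and 8.48 against 8.63, 8.84 and 8.73. It rose by 0.33 (SE 0.07), or 1.26-fold, with limma's adjusted p = 0.0174. That call ended without CH1 (0.0669), CH2 (0.0568), LE2 (0.0598) or LE3 (0.0597), over a range of 0.00104 to 0.0669.

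The neighbours of these genes did not pass the test. Ccl4, a close relative of Ccl3, read 7.08, 7.06 and 7.05 against 7.18, 7.01 and 7.01, a difference of 0.00 (interval -0.14 to 0.14). Ccl9 read 11.39, 11.42 and 11.45 against 11.44, 11.61 and 11.54. It overlapped between diets, with a difference of 0.11 (interval -0.02 to 0.25). Ccl5, a T cell and platelet chemokine, read 8.08, 8.08 and 8.02 against 8.15, 8.13 and 8.16. These groups were apart, but the difference of 0.09 (SE 0.05) did not pass (limma's adjusted p = 0.313). Within arrays, the log2 ratio of Ccl3 to Ccl4 rose by 0.40 and that of Ccl6 to Ccl9 by 0.22, both without overlap between diets. The receptor Ccr1 read 4.84, 5.04 and 4.97 against 4.75, 5.02 and 4.92, among the dimmest of the members, with a difference of -0.05 (interval -0.24 to 0.14).

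Ccl2, Ccl7 and Ccl12, the monocyte attractants that bind Ccr2, lie in another run on chromosome 11 together with Ccl8 and the eosinophil attractant Ccl11. Ccl12 read 6.19, 6.12 and 6.04 on the cholesterol arrays and 5.84, 5.89 and 5.94 on the others. It was lower on every array of lovastatin and ezetimibe and fell by 0.22 (SE 0.06, limma's adjusted p = 0.0444). This call held in 2 of 13 alternatives only, with adjusted p from 0.0344 to 0.233, and it ended without any 1 array (0.0502 without CH3 to 0.16 without CH1). Ccl2 went the other way, with 7.19, 7.41 and 7.21 against 7.59, 7.45 and 7.57. The groups were apart by little, since CH2 lay close to LE2, and the difference of 0.27 (SE 0.08) did not pass (limma's adjusted p = 0.0619). It passed in 7 of 14 alternatives, over a range of 0.022 to 0.186, among them the fit without CH2 (0.0242). The log2 ratio of Ccl2 to Ccl12 went from 1.15 (SD 0.15, n = 3) to 1.64 (SD 0.10, n = 3), a rise of 0.49 without overlap. Ccl7, Ccl8 and Ccl11 overlapped between diets, with differences of 0.08, 0.16 and -0.11, none past the threshold. Ccr2, the receptor of inflammatory monocytes, read 5.70, 5.89 and 5.99 against 5.81, 5.96 and 5.99, a difference of 0.06 (interval -0.14 to 0.25).

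**Figure D3:**
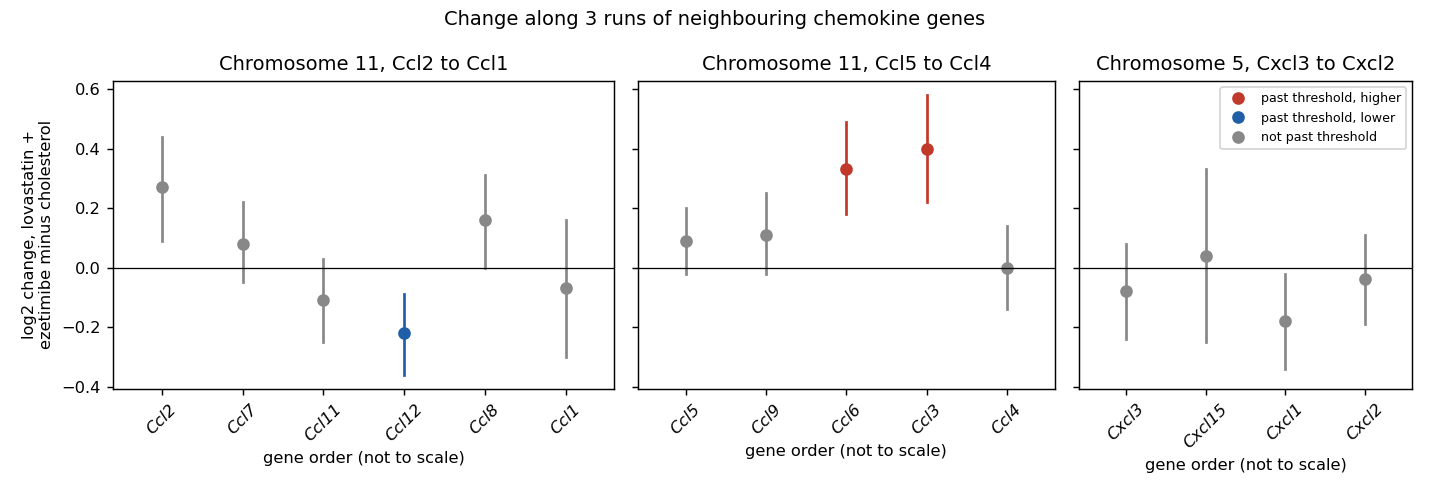
Change on the log2 scale (y axis, with 95% intervals as lines) along 3 runs of neighbouring chemokine genes, drawn in RefSeq's gene order and not to scale. Ccl6 (0.33) and Ccl3 (0.40) rose between Ccl9 (0.11) and Ccl4 (0.00), and Ccl12 (-0.22) lay below Ccl2 (0.27).

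Cxcl16 is made as a membrane protein that also takes up oxidised lipoprotein, and its shed form attracts cells with Cxcr6, such as liver natural killer T cells. It read 7.94, 7.95 and 7.94 on the cholesterol arrays and 8.23, 8.09 and 8.25 on the others. The rise of 0.25 (SE 0.06), or 1.19-fold, passed with limma's adjusted p = 0.0286. The call ended when any array but LE2 was left out (0.0736 without CH2 to 0.0945 without CH1) and held in 8 of 14 alternatives (0.00828 to 0.0945). Cxcr6 read 6.37, 6.34 and 6.21 against 6.64, 6.48 and 6.47. It was higher on each lovastatin and ezetimibe array, but its difference of 0.22 (SE 0.07) did not pass (limma's adjusted p = 0.0837), and 1 alternative of 13, quantile normalisation, called it (0.044; 0.044 to 0.215 over all).

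Cxcl12, which stromal and endothelial cells make to hold Cxcr4-bearing cells in place, was the most lowered member. It read 10.84, 10.83 and 10.92 with cholesterol and 10.57, 10.61 and 10.66 with lovastatin and ezetimibe. The groups were apart, and the gene fell by 0.25 (SE 0.05), a 1.19-fold lower value, with limma's adjusted p = 0.0178. Leaving out CH1, CH3, LE1 or LE2 moved the adjusted p to 0.0598, 0.0659, 0.0608 and 0.0634, within 0.000171 to 0.0659 over 14 alternatives. Its receptor Cxcr4 read 6.54, 6.34 and 6.54 against 6.79, 6.58 and 6.61. That difference was 0.19 (interval 0.00 to 0.37, limma's adjusted p = 0.197). Cx3cl1, the membrane-bound ligand of endothelium, and its receptor Cx3cr1 overlapped between diets, with differences of 0.05 and 0.07. Cxcl14, a chemokine of epithelia, read 7.43, 7.42 and 7.34 against 7.50, 7.67 and 7.90. LE3 stood highest, the spread with lovastatin and ezetimibe was wide (SD 0.20, n = 3), and the difference of 0.29 (SE 0.10) did not pass (limma's adjusted p = 0.102). It passed in 4 of 14 alternatives, over 0.0283 to 0.22, among them the fit without LE1 (0.033).

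None of the neutrophil attractants Cxcl1, Cxcl2, Cxcl3 and Cxcl5, nor the lung chemokine Cxcl15, passed the test. Cxcl1 read 8.48, 8.39 and 8.39 on the cholesterol arrays and 8.36, 8.23 and 8.14 on the others. It was lower on every array of lovastatin and ezetimibe, without passing the test (-0.18, SE 0.07, limma's adjusted p = 0.155). The other 4 overlapped between diets, with differences from -0.08 (Cxcl3) to 0.04 (Cxcl15). Their receptors Cxcr1 (-0.06) and Cxcr2 (0.12, interval -0.13 to 0.38) did not pass either. Of 9 measured neutrophil markers, Cxcr2 among them, 0 passed the test, and all 9 lay below the median signal of all genes. Beside the 12.1% of all genes past the threshold, 0 in a list this short and dim does not show a lack of change.

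The ligands of Ccr7, which guide T cells and dendritic cells into lymph nodes, were not past the threshold. Ccl19, a ligand of Ccr7, read 8.37, 8.45 and 8.36 against 8.53, 8.49 and 8.53. The groups were apart, but the difference of 0.13 (SE 0.05) did not pass (limma's adjusted p = 0.161). Its 4 other probe sets gave differences of 0.10 to 0.13. The probe sets that cannot separate the copies of Ccl21, the other ligand of Ccr7, read 7.89, 7.99 and 8.06 against 8.04, 8.24 and 8.14, a difference of 0.16 (SE 0.08). Those shared by Ccl27a and Ccl27b differed by -0.19 to -0.16 (SE 0.05). In a limma fit over all 35556 probe sets, 5.61% passed, and neither group of shared probe sets did (adjusted p = 0.32 for Ccl21 and 0.0823 to 0.129 for Ccl27). Ccr7 overlapped between diets (0.08).

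Ccl20, the attractant of Ccr6-bearing T cells, read 6.76, 6.84 and 6.46 against 6.49, 6.46 and 6.46. CH3 lay with the lovastatin and ezetimibe arrays, the difference of -0.22 (SE 0.09) did not pass (limma's adjusted p = 0.2), and without CH3 it did (-0.33, adjusted p = 0.015, the lowest of 13 alternatives that reached up to 0.417). Ccl22 and Ccl17, the ligands of Ccr4, differed by -0.10 and 0.19, and Ccr4 by -0.08, with Ccl22 and Ccr4 apart between diets. The Ccr4 arrays were very even, 6.40 on each cholesterol array and 6.31 to 6.32 on the others. Ccl25, the thymus and gut chemokine, and its receptor Ccr9 overlapped, with differences of 0.01 and 0.03. The same held for Ccl1 (-0.07), which binds Ccr8, for the mucosal ligand Ccl28 (-0.10) of Ccr10, for the eotaxin genes Ccl24 (0.02) and Ccl26 (0.10), for Xcl1 (0.04) and its dendritic cell receptor Xcr1 (-0.03), and for Cxcl17 (0.00).

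Of the 17 receptors, 0 passed limma's test, 3 had an unadjusted p under 0.05, and 0 passed a regularised test modelled on cyberT. Among all 19938 genes, 4939 had an unadjusted p under 0.05 in limma's test. The ligands had 6 higher and 2 lower among 34, or 23.5%, beside 12.1% of all genes. Whether ligands and receptors differ in this respect was not tested. Receptor changes ran from -0.17 (Ccr8) to 0.22 (Cxcr6). Their 95% intervals, each for 1 gene alone, reached from -0.32 (Ccr8) to 0.38 (Cxcr2). Changes of array signal larger than 1.3-fold upward lie outside every one of them, while smaller ones were not resolved. For the 13 receptors among the dimmest 33.3% of genes, signal understates folds, so the intervals do not bound the change in RNA. The receptors Ccr3 (-0.01), Ccr6 (-0.04) and Ccr10 (0.04) were near 0. In simulated data with noise drawn from limma's moderated variances, limma recovered 6% of changes of 0.25, 88% of 0.5 and 100% of 1 and 2 on the log2 scale. Only 200 of 19938 genes were changed there, while 2410 passed in these data. The adjusted threshold was therefore stricter in the simulation, and recovery of small changes may be understated. Moderated variances are more alike between genes than unmoderated ones, which may instead overstate recovery, so the net error is not known.

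Genes around the chemokine system that the naming rule leaves out were counted in 4 lists, to be read beside the 12.1% of all genes past the threshold (7.01% higher and 5.08% lower). Of 8 atypical receptors and related genes, 2 rose and 0 fell (25% called). Ackr2, a scavenger receptor that removes inflammatory CC ligands, read 7.87, 7.86 and 7.85 on the cholesterol arrays and 8.21, 8.17 and 8.30 on the others (0.37, SE 0.05, limma's adjusted p = 0.00341). Cmklr1, the chemerin receptor of macrophages, rose by 0.27 (SE 0.06). Ackr3, the second receptor of Cxcl12, did not pass (0.10), nor did the platelet chemokines Pf4 (0.17) and Ppbp (-0.06). Of 26 measured genes of receptor signalling, 3 rose, 1 fell and 22 did not pass, which at 15.4% called is near the share of all genes. Elmo1 and Rac2, which drive the cytoskeleton of migrating leukocytes, rose by 0.26 and 0.21, and the kinase gene Pik3cg by 0.31. Rgs16, which shortens G protein signals, fell by 0.34 (SE 0.05, limma's adjusted p = 0.00321). The calls of Ackr2 and Rgs16 held without any 1 array. That of Elmo1 ended without CH1 or CH3 (adjusted p up to 0.0639), those of Cmklr1 and Pik3cg without any array but CH3 and CH1, respectively (up to 0.106 and 0.125), and that of Rac2 without any (0.0567 to 0.138).

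Of 10 genes whose products trim, shed or modify chemokines and their receptors, 3 rose and 1 fell (40% called). Dpp4, the peptidase that clips Cxcl10 and Cxcl12, rose by 0.21 (SE 0.05), Adam10, which sheds Cxcl16 and Cx3cl1, by 0.19 (SE 0.05) and the macrophage elastase Mmp12 by 0.40 (SE 0.09). Tpst2, a tyrosine sulfotransferase that modifies chemokine receptors, fell by 0.29 (SE 0.05). Of 17 measured inducing cytokines and NF-kB genes, 5 rose and 1 fell (35.3% called). Il1b, the macrophage cytokine, read 6.63, 6.77 and 6.89 against 7.27, 7.15 and 7.35 (0.50, SE 0.08, limma's adjusted p = 0.00697). Vcam1 and Icam1, adhesion molecules for leukocytes, rose by 0.54 and 0.34 and the apoptosis inhibitor Birc3 by 0.34. Of the feedback inhibitors of NF-kB, Tnfaip3 rose by 0.30 (SE 0.06, limma's adjusted p = 0.0163) and Nfkbia fell by 0.25 (adjusted p = 0.0484). Ifng, the interferon that induces Cxcl9, read 6.68, 6.80 and 6.71 against 6.61, 6.55 and 6.54. It was no higher on any lovastatin and ezetimibe array (-0.17, adjusted p = 0.0894), and Tnf (0.14) and Il6 (0.02) did not pass. Of the 17 genes, 10 lay below the median signal of all genes, among them Ifng, Tnf and Il6. Signal understates folds for dim genes, so these values do not bound the change in cytokine RNA. Leaving out 1 array at a time ended no call of Tpst2, Il1b, Vcam1 or Icam1. It ended that of Adam10 each time (0.0737 to 0.13), of Dpp4 except without LE1 (up to 0.137), of Mmp12 without CH1, CH3, LE2 or LE3 (up to 0.117), of Tnfaip3 without CH1 (0.0596), of Birc3 without any array of lovastatin and ezetimibe (up to 0.0623) and of Nfkbia except without LE3 (up to 0.156).

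The tissue label was checked against its markers. All 6 measured hepatocyte markers lay at or above the 98.9th percentile of gene signal, and 0 passed the test between diets. Of the Kupffer cell and macrophage markers, 12 of 13 rose, 0 fell, and all 13 were apart between diets. Their median change was 0.37, beside 0.04 for the 51 members, and single markers ran from 0.09 (Cd5l) to 0.55 (Cd68). Their summed signal was 13.43 to 13.52 with cholesterol and 13.82 to 13.86 with lovastatin and ezetimibe, a rise of 0.36. The sums of the monocyte markers (9.44 to 9.61 against 9.67 to 9.84) and the dendritic cell markers (10.33 to 10.37 against 10.39 to 10.43) were also apart and higher, the latter barely. That of the B cell markers (9.32 to 9.38 against 9.21 to 9.29) was apart and lower. Only 2 of the 6 monocyte, 2 of the 8 dendritic cell and 2 of the 5 B cell markers were themselves apart in that direction. Among all genes, 15.9% were apart and higher and 14.7% apart and lower. In bulk liver, more cells of a type and more RNA per cell cannot be told apart. Of the other lists, 1 of 6 monocyte markers rose (Cd14, 0.43, SE 0.11), and T cell, natural killer cell, dendritic cell, endothelial and cholangiocyte markers had 0 past the test of 8, 8, 8, 9 and 5. Beside the 12.1% of all genes past the threshold, 0 in lists this short does not show a lack of change. Below the median signal of all genes lay 7, 8, 6, 0 and 4 of these markers, respectively. Of 8 stellate cell and fibroblast markers, 1 fell (Col3a1, -0.19, SE 0.05). The calls of Cd14 and Pax5 ended in 5 of 6 fits without 1 array, those of Col3a1 and the Kupffer cell gene Clec4f in all 6, and that of the macrophage gene Vsig4 without LE2 (0.0519), while the other 10 macrophage markers kept theirs. The monocyte, neutrophil and dendritic cell lists each hold 1 member (Ccr2, Cxcr2 and Xcr1).

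**Figure D4:**
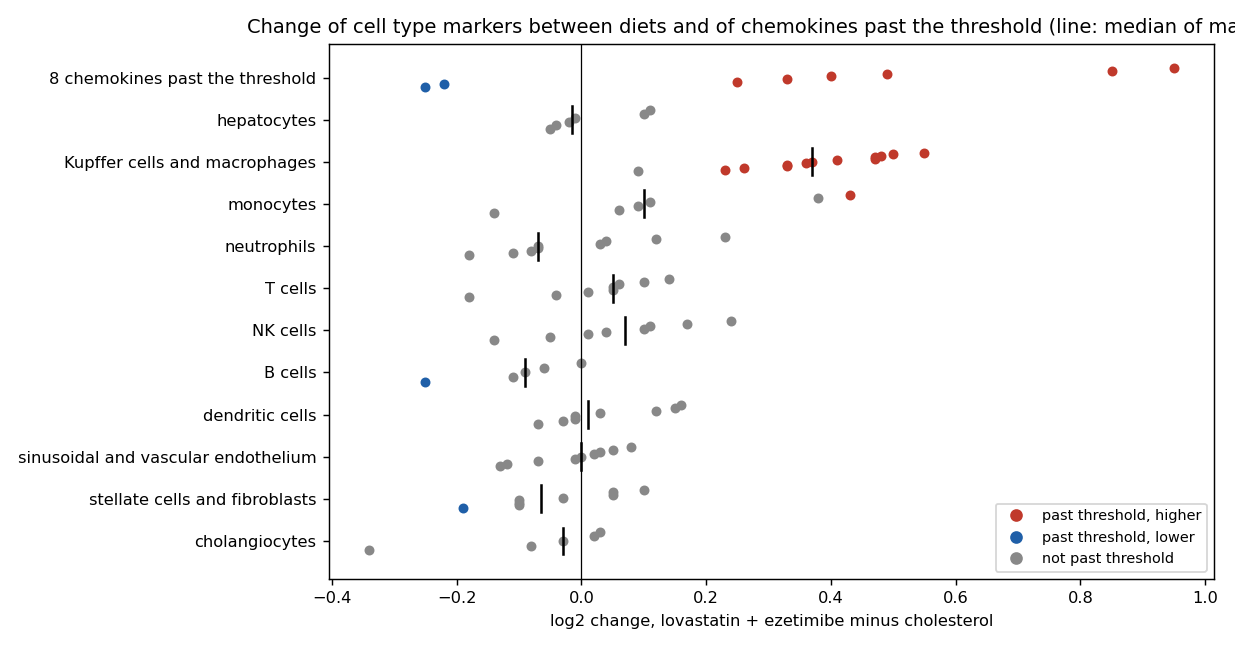
Change on the log2 scale (x axis) of the markers of 11 cell types, 1 row per list with its median as a line, below the 8 chemokines past the threshold. The Kupffer cell and macrophage row lies to the right of 0 in full, with 12 of 13 genes past the threshold. In the monocyte row 5 of 6 genes lie to the right of 0. The B cell row lies at or to the left of 0, and the remaining marker rows lie on both sides of it.

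The 8 chemokines were also set against the summed macrophage markers within each array. As that sum itself rose by 0.36, a gene without any change would come out lower by as much. The marker sum weighs bright probe sets most. Cxcl13 was higher by 0.59 relative to the marker sum, Cxcl10 by 0.49 and Cxcl9 by 0.13, each without overlap between diets. The rise of Cxcl9 itself (0.49) lay within the range of single markers, where Cd163 rose by 0.50, while those of Cxcl13 and Cxcl10 lay above it. Ccl3 and Ccl6 overlapped, with differences of 0.04 and -0.02. Cxcl16 was lower by 0.11 relative to the sum (-5.57 to -5.48 against -5.73 to -5.59, so the groups were barely apart). Cxcl12 and Ccl12, which fell in themselves, were lower by 0.61 and 0.58. The part of the macrophage markers in these results was not tested.

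**Figure D5:**
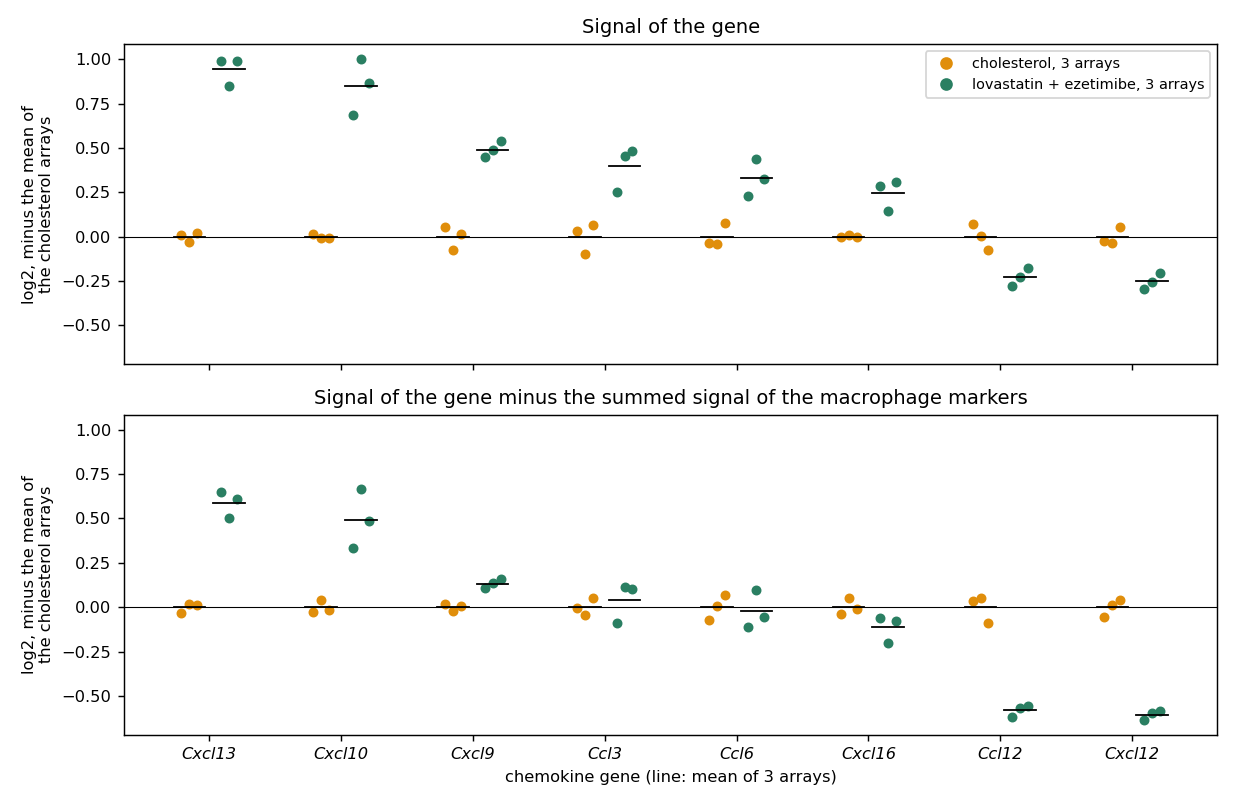
Array values of the 8 chemokines past the threshold on the log2 scale, minus the mean of the cholesterol arrays (y axes), for the signal itself (top) and for the signal minus the summed macrophage markers (bottom), with 3 points per diet and their mean as a line. In the lower panel Cxcl13 (0.59) and Cxcl10 (0.49) remain well above 0, while Ccl3 (0.04) and Ccl6 (-0.02) lie at it.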

How the data were processed

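Total RNA was extracted with Trizol and hybridised to Affymetrix Mouse Gene 1.0 arrays, per the labels' protocols and the series design, where Partek Genomics Suite and cyberT are the tools listed for differential expression. The authors deposited 1 linear intensity per probe set. How it was background-corrected and normalised is not given in the sources used here. Array medians lay between 158.1 and 162.9.

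Of 35556 probe sets, 21789 carried 1 gene symbol, 1621 several and 12146 none in the platform annotation, and 21698 of the first matched RefSeq by gene identifier. For 999 genes with several such probe sets the brightest was used, leaving 19938 genes. Of the members, 49 had 1 probe set and 2 (Ccl19 and Ccl25) several. Values were taken as log2(intensity + 1) and fitted with limma 3.58.1 in R 4.3.3 (lmFit and eBayes, two-sided, Benjamini-Hochberg over all genes, threshold 0.05, no filter). For dim genes such folds are too small, brightness is not comparable between probe sets, and precision is limited by the number of arrays. Related chemokines such as Ccl3 and Ccl4 may share probe signal.

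Genes were named by a rule covering all members, with array values for those past the threshold and for ligand and receptor axes. The members and all lists were chosen with earlier results of these data known. Of the list genes, 10 had no probe set of their own. Alternatives were a replicate block, quantile normalisation, centring, averaging each gene's probe sets, omission of the dimmest 33.3% of genes, an intensity trend with robust prior, a regularised test modelled on cyberT (window of 101 genes, prior weight 10, chosen here), a pseudocount of 16 and omission of each array. The fit was tested on simulated data for 19938 genes with 200 changed, with independent noise from limma's moderated variances, where it made 3 false calls. Ratios between genes were compared by exact permutation with scipy 1.17.1.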

Additional observations from a re-analysis of the deposited data

How the results depend on the processing

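No member reversed under any alternative in a way that touched a call, and 39 of the 51 genes were past the threshold nowhere. Leaving out 1 array at a time gave 4 to 6 members past the threshold, 3 to 6 higher and 0 to 1 lower, against 8, 6 and 2 with all arrays, and 1489 to 1868 genes in all against 2410. Without LE3, 3 were higher, and 0 were lower without CH1, LE1 or LE2. The number of lower members was 1 with the replicate block, after quantile normalisation, without the dimmest 33.3% of genes (where Ccl12 was not tested), with the intensity trend, with the regularised test modelled on cyberT and with a pseudocount of 16. The labels do not say whether the replicate numbers pair the arrays. The deviations of same-numbered arrays from their group means correlated at -0.02, -0.10 and 0.16, and those of differently numbered arrays at -0.23 to 0.25. With 3 arrays per diet these values show no pairing but cannot exclude it. With the replicate number as a block, 6 members and 1688 genes were past the threshold, and Cxcl16 (adjusted p = 0.0662) and Ccl12 (0.112) were not. At 3 arrays per diet, the simulated recovery was 6% at a log2 change of 0.25. With only 200 changed genes, the simulation had a stricter adjusted threshold than these data, where Cxcl16 (0.25) and Cxcl12 (-0.25) passed. Changes that small can be missed, but the share missed among the members is not known.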
